A study of Mus musculus with 32 samples.

Results

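Among the mature oligodendrocytes (MOLs) of the mouse median eminence (ME), 108 cells carried transcripts of Ctps or Shisa8 and are described here. They were chosen on their counts of unique molecular identifiers (UMIs, each standing for 1 captured transcript): at least 20 UMIs of Mal, Ermn and Opalin together, none of Klk6, and at least 2 of Ctps and Shisa8 together. They are 108 of the 5982 cells measured, or 1.81% (exact Clopper-Pearson 95% interval 1.48 to 2.18), and are called Ctps/Shisa8 MOLs. They were compared with 488 MOLs, the comparison MOLs, that met the same rule on Mal, Ermn, Opalin and Klk6 but had 0 or 1 UMI of Ctps and Shisa8. Another 58 MOLs had Klk6 and are used only as a reference, named Klk6 MOLs.

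The cells came from 2 pools of C57B/L6 male mice aged 40 to 47 days. 1 pool held the ME of 5 mice fasted overnight for 16 h, and the other that of 5 mice refed normal chow for 1 h after the same fast. Each pool was dissociated with papain, sorted for live single cells and split over 2 libraries. All mice had been fasted, no genotype or transgene was involved, and pooling left 1 sample of each condition. The barcodes of the cells end in a number from 1 to 4 that no label ties to a library or a condition, so fasted and refed mice were not compared. All cells were taken as 1 sample, no test was possible, and each barcode number is shown only as a description. The Ctps/Shisa8 MOLs numbered 26, 24, 22 and 36 under barcode numbers 1 to 4, and the comparison MOLs 130, 93, 140 and 125.

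Oligodendrocytes arise from oligodendrocyte progenitor cells (OPCs), pass through a differentiating stage (diffOPCs) and wrap axons in myelin, a stack of membranes rich in cholesterol and galactolipids and held together by a small set of proteins. After myelination they keep axons supplied and take on a set of later genes, among them those of lipocalin-type prostaglandin D synthase (Ptgds), carbonic anhydrase 2 (Car2) and apolipoprotein D (Apod). The ME, at the base of the hypothalamus, has fenestrated capillaries and is exposed to circulating hormones and nutrients. Ctps encodes CTP synthase, which makes the cytidine nucleotide used for RNA and for phospholipid synthesis. Shisa8 encodes an auxiliary subunit of AMPA-type glutamate receptors.

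Depth separated the groups before any gene was compared. A Ctps/Shisa8 MOL held a median of 9170.5 UMIs (5448 to 19182), while a comparison MOL held a median of 5794 UMIs (2487 to 16682). No Ctps/Shisa8 MOL had fewer than 5448 UMIs, whereas 190 comparison MOLs did. A deeper cell reaches 2 UMIs of a rare transcript more readily, and a cell that holds more RNA is also deeper, and these cannot be told apart here. After cells had been thinned at random to 3000 UMIs, which left out 2 shallower comparison MOLs, the groups detected similar numbers of genes (medians of 1360.5 and 1350.5). Mitochondrial transcripts made up 3.98% of the UMIs of Ctps/Shisa8 MOLs and 5.11% of those of comparison MOLs. Scrublet, which looks for droplets that held more than 1 cell, called 0 of the 108 Ctps/Shisa8 MOLs and 9 of the 488 comparison MOLs. It is not built to find doublets of 2 cells of the same type. 1 Ctps/Shisa8 MOL had a barcode sequence that was also found under another number, as did 42 cells of the whole matrix.

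The label of these cells was set against their markers. When all 5982 cells were clustered, the 108 Ctps/Shisa8 MOLs fell into the 2 clusters that carried the MOL markers, which is a description, since Mal, Ermn and Opalin of the rule are among those markers. For the same reason Opalin, a membrane protein of myelinating oligodendrocytes, is no check of the label, and its level of 2325 CPM (UMIs per 1e+06 UMIs) in Ctps/Shisa8 MOLs is given as a description. Tspan2 and Grb14 were not used by the rule, but they were named with earlier results of these data known, so they are no independent check either. Tspan2, a tetraspanin of oligodendrocytes, stood at 2050 CPM in Ctps/Shisa8 MOLs and at 217 CPM in cells clustered as diffOPC-like. Grb14, an adaptor that binds the insulin receptor, stood at 1120 CPM and 14.1 CPM in the same groups. Comparison MOLs, at 1201 CPM of Tspan2 and 734 CPM of Grb14, also lay above diffOPC-like cells, so these levels mark MOLs in general.

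Ctps and Shisa8 are the genes by which the cells were chosen, so their levels are given without a comparison. Ctps (GRCm38, chr4:120539868-120570276, minus strand) held 256 UMIs in the Ctps/Shisa8 MOLs, or 242 CPM (exact Poisson 95% interval 213 to 273), and was found in 69 of the 108 cells. Shisa8 (chr15:82206168-82212815, minus strand) held 310 UMIs, or 293 CPM (261 to 327), and was found in 102 cells. Both genes were found together in 63 cells, Shisa8 alone in 39 and Ctps alone in 6. Under barcode numbers 1 to 4, Ctps stood at 234, 176, 258 and 278 CPM and Shisa8 at 292, 284, 346 and 267 CPM. Neither gene was carried by 1 barcode number.

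The promoter windows of both genes are shown because these genes define the cells, beside those of Opalin and Mag as myelin genes that the same cells expressed at high levels. Each runs from 250 bases before to 50 bases after the first start that RefSeq lists on GRCm38.p6, 5′ to 3′ on the strand of the gene. Capitals mark the letters ACAAAG or ACAATG, which the SOX family of oligodendrocyte factors is known to bind, and CTGGCAC or CTGGTAC, which MYRF is known to bind, on either strand; the 2 motifs share no letters in these windows.
Ctps (chr4:120570227-120570526, minus strand): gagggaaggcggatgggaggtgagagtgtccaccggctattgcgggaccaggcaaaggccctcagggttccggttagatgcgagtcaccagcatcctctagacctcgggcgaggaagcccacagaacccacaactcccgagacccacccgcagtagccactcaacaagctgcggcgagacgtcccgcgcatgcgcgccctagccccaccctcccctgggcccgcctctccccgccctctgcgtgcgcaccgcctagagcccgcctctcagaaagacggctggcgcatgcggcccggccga
Shisa8 (chr15:82212766-82213065, minus strand): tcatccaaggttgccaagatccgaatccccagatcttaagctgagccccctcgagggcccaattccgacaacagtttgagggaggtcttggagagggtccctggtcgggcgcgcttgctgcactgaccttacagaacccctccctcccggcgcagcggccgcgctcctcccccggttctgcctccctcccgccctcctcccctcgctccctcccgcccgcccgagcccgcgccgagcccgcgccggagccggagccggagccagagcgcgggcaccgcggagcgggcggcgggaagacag
Opalin (chr19:41077064-41077363, minus strand): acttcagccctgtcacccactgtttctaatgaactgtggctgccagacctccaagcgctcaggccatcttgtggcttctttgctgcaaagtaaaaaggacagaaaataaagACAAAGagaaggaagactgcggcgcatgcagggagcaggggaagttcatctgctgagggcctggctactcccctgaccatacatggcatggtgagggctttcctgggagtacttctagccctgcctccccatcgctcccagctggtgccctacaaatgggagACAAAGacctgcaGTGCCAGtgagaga
Mag (chr7:30914814-30915113, minus strand): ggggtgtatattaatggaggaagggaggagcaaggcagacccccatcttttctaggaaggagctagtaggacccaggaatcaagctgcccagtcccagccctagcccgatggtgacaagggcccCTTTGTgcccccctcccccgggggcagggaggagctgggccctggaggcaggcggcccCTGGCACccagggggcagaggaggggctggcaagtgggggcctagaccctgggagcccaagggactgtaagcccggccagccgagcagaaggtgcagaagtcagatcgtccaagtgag
The Ctps and Shisa8 windows hold neither motif and are 68.3% and 71.3% G and C, while the Opalin and Mag windows hold both and are 54.3% and 65.0% G and C. The windows of Tspan2, Tmem141 and Slc9a3r2, higher genes described below and not printed, hold neither motif either. Of 27025 genes with a window of 300 bases, 28.8% hold the SOX letters and 7.07% the MYRF letters, and of the 5317 matched among the genes compared below, 18.3% and 6.07% do. Of the higher and lower genes described below, 202 of 272 and 191 of 241 had a window. The SOX letters were in 18.8% and 26.2% of these windows and the MYRF letters in 9.41% and 8.38%. Whether these shares differ from those of the genes compared was not tested.

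To ask what else set the Ctps/Shisa8 MOLs apart, UMIs were summed over the cells of each group and 6635 genes with at least 50 UMIs were compared, with the 6 genes of the rule left out. A gene was called when its level differed by at least 1.5-fold, after adding 10 CPM to each side, and lay on the same side in all 4 barcode numbers. By this rule 272 genes (4.1%) were higher and 241 genes (3.63%) were lower in the Ctps/Shisa8 MOLs, 81 and 57 of them by at least 2-fold. Among the higher genes was the myelin-associated glycoprotein Mag, at 2.22-fold (counting interval 2.15 to 2.29), and among the lower ones Ptgds, at 0.543-fold (0.534 to 0.552). Because the groups were formed on Ctps and Shisa8 in the same cells, these differences describe what goes with those transcripts. The intervals cover counting error only.

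Depth moved with these differences. Among cells of 5000 to 7000 UMIs, where 27 Ctps/Shisa8 MOLs met 322 comparison MOLs, 101 genes were called higher and 220 lower of 4641 tested, and 11 and 28 of these were among the 272 and 241. Among cells of 7000 to 12000 UMIs, with 55 and 61 cells, 76 and 67 of 2889 genes were called, and 45 and 23 were shared. Fewer cells and genes entered these ranges, so fewer calls could be shared. Within that limit, much of what follows describes the deeper Ctps/Shisa8 MOLs. Counts with comparison cells weighted to the depth of the Ctps/Shisa8 MOLs are also given for the main groups. At 9978 to 12266 UMIs, 21 Ctps/Shisa8 MOLs met 6 comparison MOLs, and at 12267 to 19182 UMIs 22 met 3. The weighted counts lean on these few deep comparison MOLs, so they cannot show that a difference is free of depth. The counts of the main gene groups in these 2 ranges stand beside each group, and the values of a few genes by depth come after the groups.

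Tspan2 and Grb14, the markers named for these cells that the rule did not use, were both higher. Both were named with earlier results of these data known, so their higher levels are a description and no support for the label. Tspan2 stood at 2022, 1940, 2132 and 2088 CPM in the Ctps/Shisa8 MOLs of barcode numbers 1 to 4, and at 1202, 1200, 1207 and 1193 CPM in the comparison MOLs. The 4 values of 1 group did not overlap those of the other, and the ratio of the sums was 1.71 (1.62 to 1.80). Grb14 stood at 1239, 891, 1057 and 1213 CPM against 772, 780, 744 and 646 CPM, a ratio of 1.53 (1.42 to 1.64). Grb14 did not keep this direction in the cells of 5000 to 7000 UMIs, where its log2 ratio was -0.10.

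Of 19 myelin protein genes tested, 6 were higher and 0 were lower, with a median log2 ratio of 0.41 where the median over all genes tested was 0.01. With comparison cells weighted to the depth of the Ctps/Shisa8 MOLs, 5 were higher and 0 lower (median 0.47). In cells of 5000 to 7000 UMIs, 0 were called (median 0.11), and in cells of 7000 to 12000 UMIs 2 were higher and 0 lower (median 0.31). Without the 19 Ctps-rich cells described below, 3 were higher and 0 lower (median 0.30). When the Ctps/Shisa8 MOLs were limited to the 32 outside the 2 clusters described below, 0 were called (median 0.20). Mag, Mog, Tspan2, Sirt2 and Nfasc were among the higher genes. Mag, which sits on the innermost myelin membrane and binds the axon, stood at 6572, 5484, 6031 and 7478 CPM in the Ctps/Shisa8 MOLs and at 2939, 2781, 3051 and 2985 CPM in the comparison MOLs. Mog, a protein of the outer myelin surface, was at 3050 CPM against 2006 CPM, and Sirt2, a deacetylase abundant in myelin, at 2386 CPM against 1160 CPM. Nfasc, whose glial form anchors the paranodal loops of myelin to the axon, was at 562 CPM against 160 CPM, a ratio of 3.51 (3.11 to 3.98). Other abundant myelin genes differed less. Mbp was at 9297 CPM against 7863 CPM and Cnp at 11067 CPM against 7557 CPM, and neither was called.

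**Figure D1:**
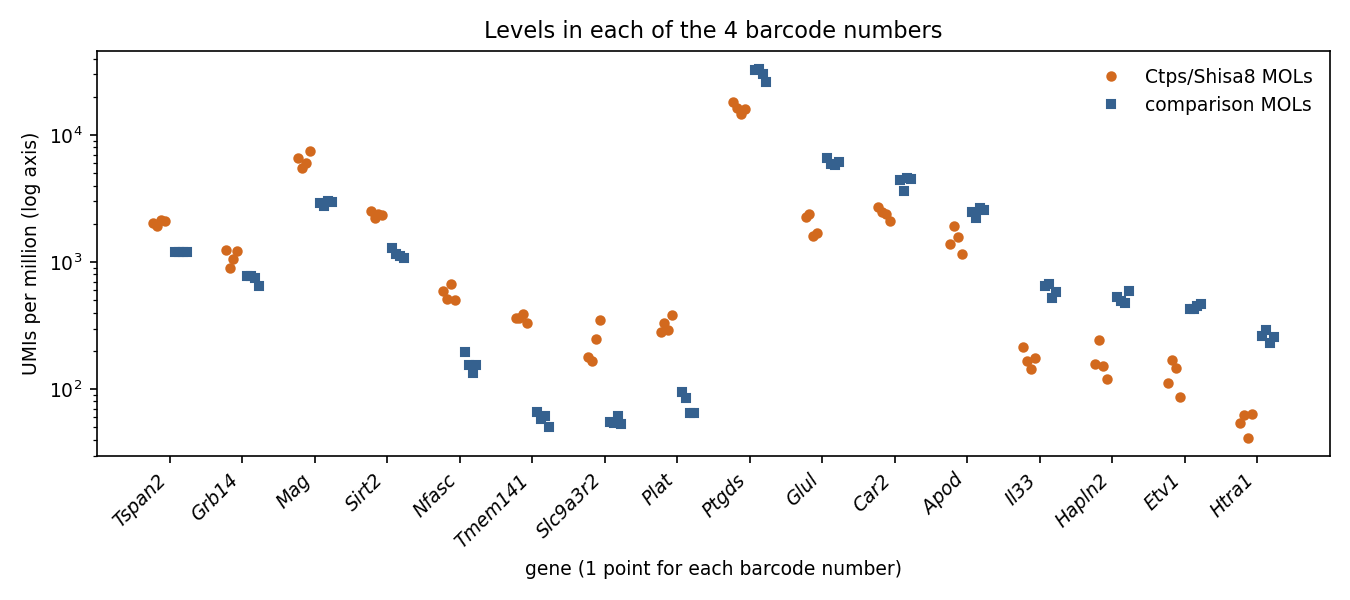
CPM (log axis) of 16 genes in Ctps/Shisa8 MOLs (circles) and comparison MOLs (squares), 1 point for each of the 4 barcode numbers. The genes shown were called for a difference on the same side in all 4 numbers: Tspan2 to Plat lie higher and Ptgds to Htra1 lower in the Ctps/Shisa8 MOLs, and the points of the groups do not overlap.

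Genes known from oligodendrocytes that are forming myelin were higher as well. Of 15 tested, 8 were higher and 0 lower, with a median log2 ratio of 0.60: Mog, Serinc5, Birc2, Fam214a, Slc9a3r2, Tmem141, Tspan2 and Grb14. With comparison cells weighted to the depth of the Ctps/Shisa8 MOLs, 9 were higher and 0 lower, with a median of 0.67. This weighted count leans on few deep comparison MOLs, as given above. Without the 19 Ctps-rich cells, 4 were higher and 0 lower, with a median of 0.30. In cells of 5000 to 7000 UMIs 0 were higher and 1 was lower, and in cells of 7000 to 12000 UMIs 1 was higher and 0 lower. With the 32 cells outside the 2 clusters 0 were higher and 1 was lower. This list was drawn up with earlier results of these data known. Tmem141, which encodes a small membrane protein, stood at 361, 360, 392 and 333 CPM in the Ctps/Shisa8 MOLs and at 66.4, 58.2, 62.0 and 50.6 CPM in the comparison MOLs, a ratio of 6.002 (5.001 to 7.23). Slc9a3r2, a scaffold protein that tethers membrane transporters, stood at 180, 167, 249 and 347 CPM against 54.9, 54.5, 62.0 and 53.4 CPM. These values do not overlap in either gene. Birc2, an inhibitor of apoptosis, was at 118 CPM against 26.2 CPM, and Serinc5, which lies in the plasma membrane and has been linked to the use of serine in lipids, at 142 CPM against 74.1 CPM. Cldn11, the claudin of myelin tight junctions, was at 10022 CPM against 7614 CPM and Mobp at 5387 CPM against 3761 CPM, and neither was called.

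Genes of late mature oligodendrocytes differed in the other direction. Of 22 tested, 14 were lower and 1 was higher, with a median log2 ratio of -0.74. With comparison cells weighted to the depth of the Ctps/Shisa8 MOLs, 5 were lower and 0 higher, with a median of -0.48. Without the 19 Ctps-rich cells, 5 were lower and 0 higher, with a median of -0.43. None was called in cells of 5000 to 7000 UMIs, and 2 were lower and 0 higher in cells of 7000 to 12000 UMIs. With the 32 cells outside the 2 clusters the direction turned, with 3 higher, 2 lower and a median of 0.14. Ptgds, the most abundant of them, stood at 18327, 16410, 14673 and 16163 CPM in the Ctps/Shisa8 MOLs and at 32545, 32982, 30021 and 26059 CPM in the comparison MOLs. Il33, a cytokine of the interleukin-1 family kept in the nucleus, stood at 215, 167, 143 and 175 CPM against 648, 667, 519 and 584 CPM. Hapln2, a link protein of the matrix at nodes of Ranvier, stood at 157, 243, 152 and 119 CPM against 533, 496, 477 and 593 CPM. The values of the groups did not overlap in any of these 3 genes. Apod was at 1460 CPM against 2492 CPM, Car2 at 2385 CPM against 4332 CPM, Trf, the iron carrier transferrin, at 4121 CPM against 6740 CPM, and Selenop, a selenium carrier, at 349 CPM against 939 CPM. Anln, Grm3, Qdpr, Pmp22, Slco3a1, Prr5l and Jph4 were the other genes called lower. The exception was Gsn, the actin-severing gelsolin, at 2487 CPM against 1486 CPM. Aspa, which splits N-acetylaspartate, stood at 989 CPM against 1380 CPM, and Cryab at 3647 CPM against 3897 CPM, and neither was called.

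The called genes were ranked by their ratios after adding 10 CPM to each side, while the ratios printed here are without it. The 15 highest were Tac1, Tmem141, Npb, Fam214a, Prom1, Man1a, Plat, Slc9a3r2, Tnik, Mgll, Gm13889, Birc2, Chadl, Cnih2 and Tmem178. Several were sparse. The neuropeptide precursor Npb had 49 UMIs in 20 Ctps/Shisa8 MOLs and 3 UMIs in the comparison MOLs, a ratio of 44.8 (14.4 to 224), and stood at 43.8 CPM in Klk6 MOLs. Tac1, the precursor of substance P, had 89 UMIs in 25 cells, of which 40 were in 1 cell, against 19 UMIs. At 84.0 CPM it lay below its level of 196 CPM in neuron-like and of 129 CPM in OPC-like cells. Prom1, a protein of membrane protrusions, had 52 UMIs in 19 cells against 12 UMIs, and stood at 57.5, 49.5, 55.4 and 38.9 CPM against 14.0, 0, 1.19 and 0 CPM. With comparison cells weighted to the depth of the Ctps/Shisa8 MOLs its direction turned, to a log2 ratio of -0.41. Plat, tissue plasminogen activator, was more abundant and stood at 284, 329, 291 and 386 CPM against 95.7, 85.4, 64.4 and 64.3 CPM. Mgll, which breaks down the endocannabinoid 2-arachidonoylglycerol, was at 89.7 CPM against 17.2 CPM.

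Ranked in the same way, with 10 CPM added to each side, the 10 lowest were Acta2, Htra1, Spock3, Pcolce2, Etv1, Dnah14, Il33, Glul, Hapln2 and Usp31. Glul, glutamine synthetase, which turns glutamate and ammonia into glutamine, stood at 2256, 2382, 1610 and 1697 CPM in the Ctps/Shisa8 MOLs and at 6623, 5950, 5802 and 6174 CPM in the comparison MOLs, a ratio of 0.319 (0.305 to 0.334). Etv1, an ETS-family transcription factor, was at 123 CPM against 444 CPM, and the secreted protease Htra1 at 56.6 CPM against 256 CPM. These 3 genes did not overlap between groups in the barcode numbers. Acta2, smooth muscle actin and a marker of mural cells, had 5 UMIs in the Ctps/Shisa8 MOLs, and in the comparison MOLs it ranged from 1.28 to 125 CPM over the barcode numbers. Its values overlapped between the groups. The values of the other 24 of these 25 highest and lowest genes did not, which the rule for calling them favours, and those of 15.1% of all genes tested did not either.

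RNA of other cell types was measured by marker lists, of which 2 vascular lists were uneven over the barcode numbers. Of 8 mural cell markers, Rgs5, Kcnj8 and Abcc9 had 0 UMIs in the Ctps/Shisa8 MOLs, and the list summed to 0, 9.004, 55.4 and 19.4 CPM over barcode numbers 1 to 4, with Vtn most abundant at 10.4 CPM. In the comparison MOLs it summed to 10.2, 224, 137 and 36.9 CPM, and in mural-like cells to 28524 CPM. Acta2 and Tagln, smooth muscle transgelin, were its genes called lower, on 5 and 1 UMIs in the Ctps/Shisa8 MOLs. The 8 markers of vascular and leptomeningeal cells summed to 15.3, 432, 780 and 91.6 CPM in the Ctps/Shisa8 MOLs and to 34.5, 185, 50.1 and 43.8 CPM in the comparison MOLs. Dcn, their most abundant gene, gave 186 CPM, 3 cells held 244 of the 302 UMIs of the list, and no gene of it was called. The microglia list summed to 192 CPM against 229 CPM and the neuron list to 83.0 CPM against 104 CPM, with Rbfox3, Elavl4 and Slc17a6 at 0 UMIs. The 10 astrocyte markers summed to 276, 383, 383 and 561 CPM against 380, 320, 433 and 323 CPM, so the groups overlapped. Itih3, the most abundant, was called higher at 222 CPM against 111 CPM, and Slc7a10 was called lower on 9 and 54 UMIs. The 10 OPC markers summed to 1863 CPM against 1271 CPM, of which Olig1, a factor of the whole lineage, gave 1766 and 1196 CPM, and Gpr17 was the gene called. The lists of tanycytes, diffOPCs, macrophages, endothelial cells, ependymocytes and pars tuberalis cells summed to 43.4, 259, 5.66, 27.4, 184 and 67.0 CPM against 60.6, 279, 4.48, 24.5, 166 and 67.5 CPM, with no gene called. The part of these lists in the comparison was not tested. Without every cell that had a UMI of Dcn, Acta2 or Myl9, 73 and 392 cells remained, 218 genes were called higher and 203 lower, and 158 and 150 of these were among the 272 and 241.

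Genes of lipid synthesis were called in part, where 4.1% of all genes tested were higher and 3.63% lower. Of 21 genes of cholesterol synthesis, 5 were higher and 0 lower, with a median log2 ratio of 0.32. Hmgcs1, which makes the precursor of mevalonate, stood at 767, 639, 743 and 661 CPM in the Ctps/Shisa8 MOLs and at 342, 347, 417 and 447 CPM in the comparison MOLs. Mvd, Fdps and Cyp51, later steps of the pathway, had ratios of 2.48, 1.58 and 1.97. In cells of 5000 to 7000 UMIs, 2 genes of the list were higher and 0 lower, with a median log2 ratio of 0.14, and in cells of 7000 to 12000 UMIs 0 were higher and 1 lower, with a median of -0.07. With comparison cells weighted to the depth of the Ctps/Shisa8 MOLs, 4 were higher and 0 lower, with a median of -0.03. Hmgcs1 was no feature of these cells alone, since Klk6 MOLs held 1176 CPM. Of 26 genes of fatty acid and myelin lipid synthesis, 2 were higher and 2 lower, with a median log2 ratio of 0.11, so the list as a whole moved little. Gal3st1, which sulfates galactosylceramide, was at 203 CPM against 116 CPM and the elongase Elovl6 at 136 CPM against 85.1 CPM, while the elongase Elovl5 was at 52.8 CPM against 105 CPM and the lipogenic factor Srebf1 at 30.2 CPM against 51.3 CPM.

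Some other genes of the pathways to which Ctps and Shisa8 belong were called, where 4.1% of all genes tested were higher and 3.63% lower. Of 20 genes of pyrimidine and CDP lipid synthesis, 2 were higher and 0 lower, with a median log2 ratio of -0.03. These were Pcyt2, which joins CTP to phosphoethanolamine, at 507 CPM against 249 CPM, and the uridine-cytidine kinase Uck1 at 36.8 CPM against 17.6 CPM. Cmpk1 and Cept1, which make CDP and join CDP-bound headgroups to lipid, stood at 132 CPM against 141 CPM and at 131 CPM against 133 CPM. Of 10 genes of AMPA receptors and their auxiliary subunits, only Cnih2 was called. Cnih2, the cornichon that slows closing of the receptor, stood at 38.4, 36.0, 46.1 and 77.8 CPM against 6.38, 9.09, 10.7 and 6.84 CPM, on 56 and 24 UMIs. No gene of the list was higher without barcode number 4 or without the Ctps-rich cells described below, of 6 and 8 tested. The same held in thinned cells, of 3 tested, and in cells of 5000 to 7000 and 7000 to 12000 UMIs, of 4 and 2 tested. The filter on UMIs left out genes there, so these counts cannot show that a difference was lost. Under barcode numbers 1 to 3, Cnih2 had ratios of 6.01, 3.96 and 4.30. With comparison cells weighted by depth, of 10 tested, 0 were higher and 2 lower. The Cnih2 relatives Cnih1 and Cnih4 stood at 104 CPM against 112 CPM and at 52.8 CPM against 53.7 CPM.

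Genes at the contact of myelin with the axon were mostly higher where they were called. Over all genes tested, 4.1% were higher and 3.63% lower. Of 20 tested, 4 were higher and 1 lower, with a median log2 ratio of 0.29. With comparison cells weighted by depth, 4 were higher and 1 lower, with a median of 0.18. Without the Ctps-rich cells, 2 were higher and 2 lower. None was called in cells of 5000 to 7000 UMIs or with the 32 cells outside the 2 clusters. In cells of 7000 to 12000 UMIs 1 was higher and 0 lower. Cntn1, a contactin of the paranode, stood at 246 CPM against 76.5 CPM, a ratio of 3.22 (2.68 to 3.87), and the protease Adamts4, which cuts matrix proteoglycans, at 463 CPM against 261 CPM. Mag and Nfasc were the others, and Hapln2 was the lower one. Of 31 cytoskeletal genes, 3 were higher and 2 lower, with a median log2 ratio of -0.03, so the list as a whole was not shifted. The actin nucleation subunit Arpc1b stood at 574 CPM against 199 CPM and Marcksl1, which links actin to the membrane, at 1031 CPM against 364 CPM, with Gsn the third, while Anln and the septin Sept8 were lower.

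The lists of signalling genes, receptors and transcription factors stand beside shares of 4.1% higher and 3.63% lower over all genes tested. Of 22 genes of insulin, IGF and mTORC1 signalling, 3 were higher and 2 lower, and the higher calls were lost under several settings. None was called higher in thinned cells, with Ctps and Shisa8 counted per 10000 UMIs, or without the Ctps-rich cells described below. The same held without cells that had a UMI of Dcn, Acta2 or Myl9, and 2 were lower in each of these settings. In cells of 5000 to 7000 and of 7000 to 12000 UMIs, 0 were called in either direction, of 16 and 8 tested. With doublets left out 1 was higher and 2 lower, and by Ctps alone 3 were higher and 6 lower. With comparison cells weighted by depth, 4 were higher and 1 lower. Grb14 was joined by the adaptor Grb2, at 97.2 CPM against 58.6 CPM, and by the mTORC2 subunit Rictor, at 52.8 CPM against 31.7 CPM. Igf1r, the receptor of insulin-like growth factor 1, was at 8.49 CPM against 26.9 CPM, on 9 and 78 UMIs, and the kinase Sgk1 at 612 CPM against 1344 CPM. Of 13 hormone and nutrient receptors, Gpr17 and the lysophosphatidic acid receptor Lpar1 were higher, and Igf1r, Adipor2 and Adora1 were lower. Lpar1 stood at 890, 833, 1126 and 991 CPM against 448, 440, 482 and 489 CPM. None of 21 oligodendrocyte transcription factor genes was called, with a median log2 ratio of 0.17, and Olig1 came closest among the 4 most abundant at 1766 CPM against 1196 CPM.

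The remaining lists stand beside a share of 4.1% of all genes tested that were higher and 3.63% that were lower. Of 20 transporters of potassium, chloride, lactate and other solutes, 0 were higher and 3 lower, namely Atp1b3, Slc1a3 and Slc38a2 at ratios of 0.546, 0.517 and 0.536. None of 9 immediate early genes was called. Of 15 heat shock genes, Hspa1a was called higher, at 201 CPM against 125 CPM, although its values overlapped over the barcode numbers. No heat shock gene was higher with depth weights, by the mean CPM of each cell, with Ctps and Shisa8 counted per 10000 UMIs, without barcode number 4, without the Ctps-rich cells, without cells that had a UMI of Dcn, Acta2 or Myl9, or in either range of depth. Of 4 genes of antigen presentation and interferon, Il33 was the only one called. Of 12 genes of newly formed oligodendrocytes, 2 were higher, 1 was lower, and the median log2 ratio was -0.01. With comparison cells weighted to the depth of the Ctps/Shisa8 MOLs, 0 were higher and 2 lower, with a median of -1.50, and 0 were called in either direction in thinned cells, of 6 tested, or with members chosen by Shisa8 alone, of 11 tested. The 2 higher genes were Cd9, at 2038 CPM against 1339 CPM, and Gpr17, at 35.9 CPM against 12.4 CPM. Bcas1 stood at 100 CPM against 101 CPM, and Enpp6 at 40.6 CPM against 62.7 CPM.

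The smaller lists were also followed within each range of depth. In cells of 5000 to 7000 UMIs, 1 fatty acid and myelin lipid gene was lower, and no gene was called among those of pyrimidine and CDP lipid synthesis, the cytoskeleton, solute transport, hormone and nutrient receptors, transcription factors or insulin signalling. In cells of 7000 to 12000 UMIs, 1 fatty acid and myelin lipid gene and 2 transporters were lower, 1 pyrimidine and CDP lipid gene was higher, and 1 cytoskeletal gene was called in each direction. With comparison cells weighted by depth, 2 transcription factor genes were higher and 1 lower, and 1 immediate early gene was higher. By Ctps alone, 4 transcription factor genes were higher and 2 lower.

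**Figure D2:**
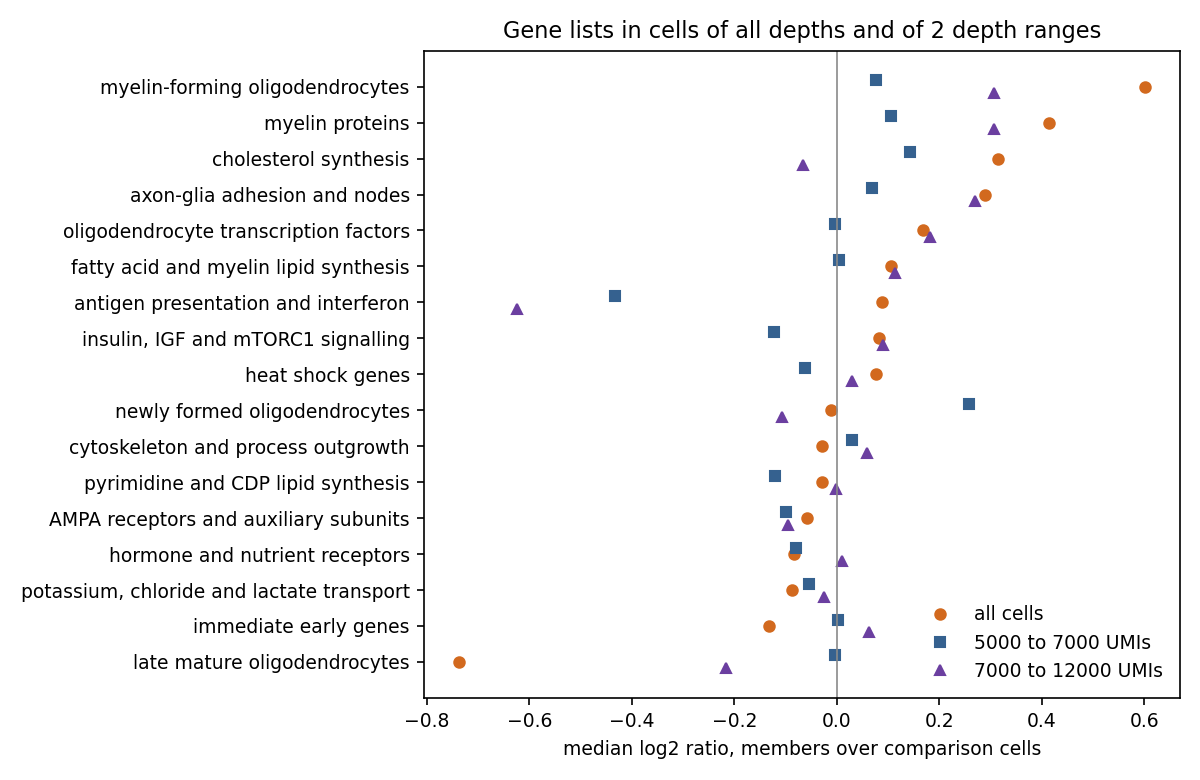
Median log2 ratio, Ctps/Shisa8 MOLs over comparison MOLs, of each gene list in cells of all depths (circles), of 5000 to 7000 UMIs (squares) and of 7000 to 12000 UMIs (triangles). The myelin-forming list lies at 0.60, 0.08 and 0.31 and the late mature list at -0.74, -0.003 and -0.22 in these 3 sets of cells.

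Within cells of like depth the gene groups stood closer together in shallow cells and apart in deep ones. Among cells of 5448 to 6839 UMIs, Mag was at 2757 CPM in 21 Ctps/Shisa8 MOLs and at 2959 CPM in 219 comparison MOLs, and Tspan2 at 1224 CPM and 1199 CPM. Among cells of 8178 to 9977 UMIs, Tspan2 was at 1844 CPM in 22 Ctps/Shisa8 MOLs and at 1380 CPM in 21 comparison MOLs, and the 22 late mature genes summed to 41371 CPM and 46009 CPM. Among cells of 12267 to 19182 UMIs, Mag was at 12007 CPM in 22 Ctps/Shisa8 MOLs and at 2527 CPM in the 3 comparison MOLs of that depth, and the late mature genes summed to 16701 CPM and 39520 CPM. Depth ran with several of these genes in the comparison MOLs too. From their 190 cells of 2487 to 5447 UMIs to their 6 cells of 9978 to 12266 UMIs, the late mature genes went from 61387 to 39230 CPM, Hapln2 from 567 to 78.8 CPM, Glul from 6978 to 2695 CPM and Tspan2 from 1059 to 1718 CPM. In their 3 deepest cells, of 12267 to 19182 UMIs, these stood at 39520, 286, 3861 and 1382 CPM. Mag in the comparison MOLs stayed between 2527 and 3245 CPM over the whole range. Few comparison MOLs were that deep, 9 with at least 9978 UMIs, so the contrast in deep cells rests on them.

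**Figure D3:**
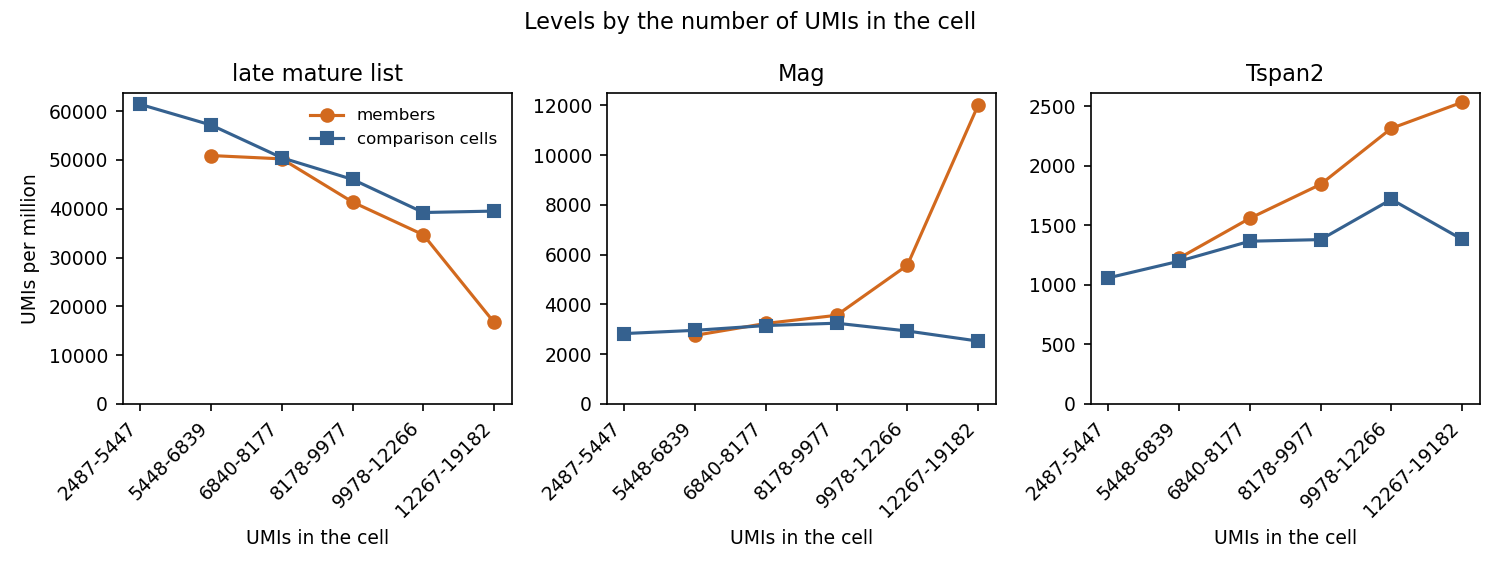
CPM of the late mature list (left), Mag (middle) and Tspan2 (right) in Ctps/Shisa8 MOLs (circles) and comparison MOLs (squares), by the number of UMIs in the cell. The groups lie close in cells of 5448 to 6839 UMIs and far apart in cells of 12267 to 19182 UMIs, where only 3 comparison MOLs stand against 22.

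The same genes are given by the number of UMIs of Ctps and Shisa8, as a description only, since the rule divides the cells by this count and depth moved with it. In the 363 MOLs with 0 UMIs of both genes, the late mature genes summed to 57105 CPM, and in the 125 MOLs with 1 UMI to 54270 CPM. They summed to 44242 CPM in the 64 cells with 2 to 3 UMIs, to 31098 CPM in the 29 cells with 4 to 9, and to 17765 CPM in the 15 cells with 10 or more. Mag stood at 2900, 3086, 3701, 7178 and 11991 CPM in the same order, and Hapln2 at 561, 434, 293, 67.6 and 0 CPM. The median depth also climbed in this order, from 5595 to 14959 UMIs. After thinning to 3000 UMIs the late mature sums were 57936, 56085, 45578, 34069 and 19556 CPM. Just outside the threshold, the 125 cells with 1 UMI had a median of 6250 UMIs, with Mag at 3086 CPM and Hapln2 at 434 CPM. Just inside it, the 34 cells with exactly 2 had a median of 7428 UMIs, with the late mature genes at 47137 CPM, Mag at 3342 CPM and Hapln2 at 260.001 CPM.

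The Ctps/Shisa8 MOLs were not uniform. The 596 Klk6-free MOLs were clustered again on genes without those of the rule, into 6 clusters. 1 cluster of 19 cells held Ctps/Shisa8 MOLs only, and a mixed cluster of 113 cells held 57 of them, or 50.4% of its cells (exact Clopper-Pearson interval 40.9 to 59.98). The other 4 clusters held the remaining 32, or 6.9% of their 464 cells. The first of these clusters was led by Ctps, Prom1, Npb, Fam214a and Birc2 and is called Ctps-rich. The mixed cluster was led by Dcn, Igfbp5, Shisa8 and Synpr. Dcn belongs to the vascular and leptomeningeal list that was uneven over cells, as given above, and its part in this cluster was not tested. All 4 barcode numbers contributed to each set, with 5, 3, 4 and 7 cells in the Ctps-rich cluster and 12, 12, 11 and 22 Ctps/Shisa8 MOLs in the mixed cluster.

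The 19 Ctps-rich cells were the deepest, with a median of 15025 UMIs. Ctps was found in all 19 and stood at 601 CPM (515 to 697), while Shisa8 was found in 15 and stood at 199 CPM (151 to 257). Mag reached 13013 CPM and Nfasc 1253 CPM, and Birc2, Fam214a and Tmem141 were at 347, 254 and 762 CPM. The late mature genes summed to 13490 CPM, the lowest among the sets of MOLs. Ptgds was at 2550 CPM and Apod at 333 CPM, and neither Il33 nor Hapln2 had a UMI, which allows up to 12.7 CPM. Glul, named among the lowest called genes and not on the late mature list, was at 275 CPM. Gpr17, a receptor of diffOPCs that is lost at maturation, was at 96.1 CPM where diffOPC-like cells had 1061 CPM and 5.21 CPM was found in the comparison MOLs outside the mixed cluster.

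The 57 Ctps/Shisa8 MOLs of the mixed cluster had a median of 9517 UMIs. Shisa8 was found in all 57 and stood at 334 CPM (287 to 386), while Ctps stood at 116 CPM (88.8 to 148) and was found in 35. Mag was at 4432 CPM, Tmem141 at 262 CPM and Slc9a3r2 at 196 CPM. Ptgds was at 21488 CPM, far above its level in the Ctps-rich cells, while Hapln2 was already low at 38.5 CPM. The 56 comparison MOLs that shared this cluster had Tmem141 at 111 CPM, Slc9a3r2 at 148 CPM and Hapln2 at 140 CPM, between the Ctps/Shisa8 MOLs of the cluster and the comparison MOLs outside it, which had 51.3, 41.6 and 587 CPM. Birc2, at 31.2 CPM, was near its level of 24.8 CPM in those outside.

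The 32 Ctps/Shisa8 MOLs of the other clusters, with a median of 6710 UMIs, had Shisa8 at 313 CPM and Ctps at 80.6 CPM but lacked most of the pattern. Mag was at 3245 CPM, Tmem141 at 62.7 CPM, Grb14 at 671 CPM, Hapln2 at 671 CPM and Glul at 5545 CPM, where the comparison MOLs outside the mixed cluster had 2884, 51.3, 693, 587 and 6664 CPM. Set against all 488 comparison MOLs, these 32 cells alone gave 127 genes called higher and 290 lower of 5918 tested, of which 19 and 31 were among the 272 and 241. Without the 19 Ctps-rich cells, 149 genes were called higher and 149 lower, and 111 and 110 were shared. Because the clusters were made from the same counts, the genes that separate them are a description of the clusters.

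**Figure D4:**
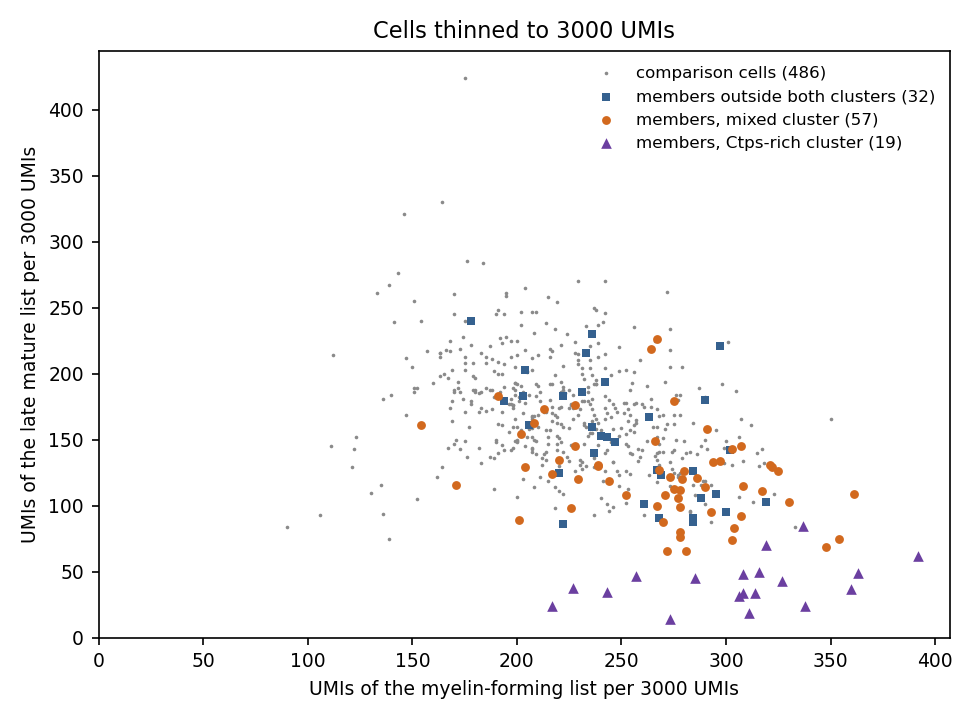
UMIs of the late mature list against UMIs of the myelin-forming list per cell, after thinning each cell to 3000 UMIs. The late mature UMIs run from 14 to 85 in the Ctps-rich cells (triangles), from 66 to 226 in the Ctps/Shisa8 MOLs of the mixed cluster (circles), from 86 to 240 in the other 32 (squares) and from 75 to 424 in the comparison MOLs (points), with medians of 38, 120, 150 and 170, so all but the Ctps-rich cells overlap broadly.

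Set beside the rest of the lineage, the higher genes fell into several patterns. Of the 272 genes higher in Ctps/Shisa8 MOLs, 53 (19.5%) were at least 1.5-fold higher again in 129 diffOPC-like cells, 91 (33.5%) were within 1.5-fold of them and 128 (47.1%) were lower there. Over all 6635 genes these shares were 29.8%, 53.8% and 16.5%. The choice of the 272 genes for a higher level in Ctps/Shisa8 MOLs favours the last of these. For 76 of the 272 genes, or 27.9%, the level in Ctps/Shisa8 MOLs lay at least 1.5-fold above comparison MOLs, Klk6 MOLs, diffOPC-like and OPC-like cells alike, where 89 of all 6635 genes (1.34%) did so. The rule that called the genes fixes the first of these conditions. Mag was one of them, at 6541 CPM beside 35.5 CPM in OPC-like and 997 CPM in diffOPC-like cells. Tmem141, Fam214a, Man1a, Slc9a3r2 and Lpar1 were others. Sirt2 was an example of the opposite, with 7091 CPM in diffOPC-like cells. Klk6 MOLs held 3755 CPM of Mag, and only the Ctps-rich cells lay at least 1.5-fold above this. The Ctps/Shisa8 MOLs of the mixed cluster exceeded it by less than 1.5-fold, and those outside both clusters lay below it. Of the 241 lower genes, comparison MOLs stood at least 1.5-fold above diffOPC-like cells in 142, or 58.9%, against 15.7% of all genes tested. The choice of these 241 genes favours this direction.

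Klk6 MOLs also carried Shisa8. Shisa8 stood at 244 CPM (204 to 290) in the 58 Klk6 MOLs, with a UMI in 65.5% of them, while Ctps stood at 45.8 CPM (29.3 to 68.1). Over the 272 higher genes, Klk6 MOLs lay within 1.5-fold of comparison MOLs in 193 (71.0%, against 86.5% of all genes tested) and at least 1.5-fold above them in 48 (17.6% against 6.56%). They lay at least 1.5-fold below Ctps/Shisa8 MOLs in 178 (65.4% against 11.6%). The choice of these genes favours both a level above comparison MOLs and a level below Ctps/Shisa8 MOLs. Tspan2 and Grb14 were at 669 and 358 CPM in Klk6 MOLs, below both other groups. Ptgds was low in both, at 4108 CPM in Klk6 MOLs and 2550 CPM in the Ctps-rich cells, whereas Apod was at 5858 and 333 CPM and Hapln2 at 1252 and 0 CPM. Outside the MOLs, Ctps was next highest in diffOPC-like cells at 40.5 CPM (29.7 to 54.0), mural-like cells at 40.01 CPM (18.3 to 76.0) and neuron-like cells at 35.1 CPM (30.8 to 39.95), whose intervals overlap, and Shisa8 in OPC-like cells at 18.9 CPM (12.1 to 28.2).

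**Figure D5:**
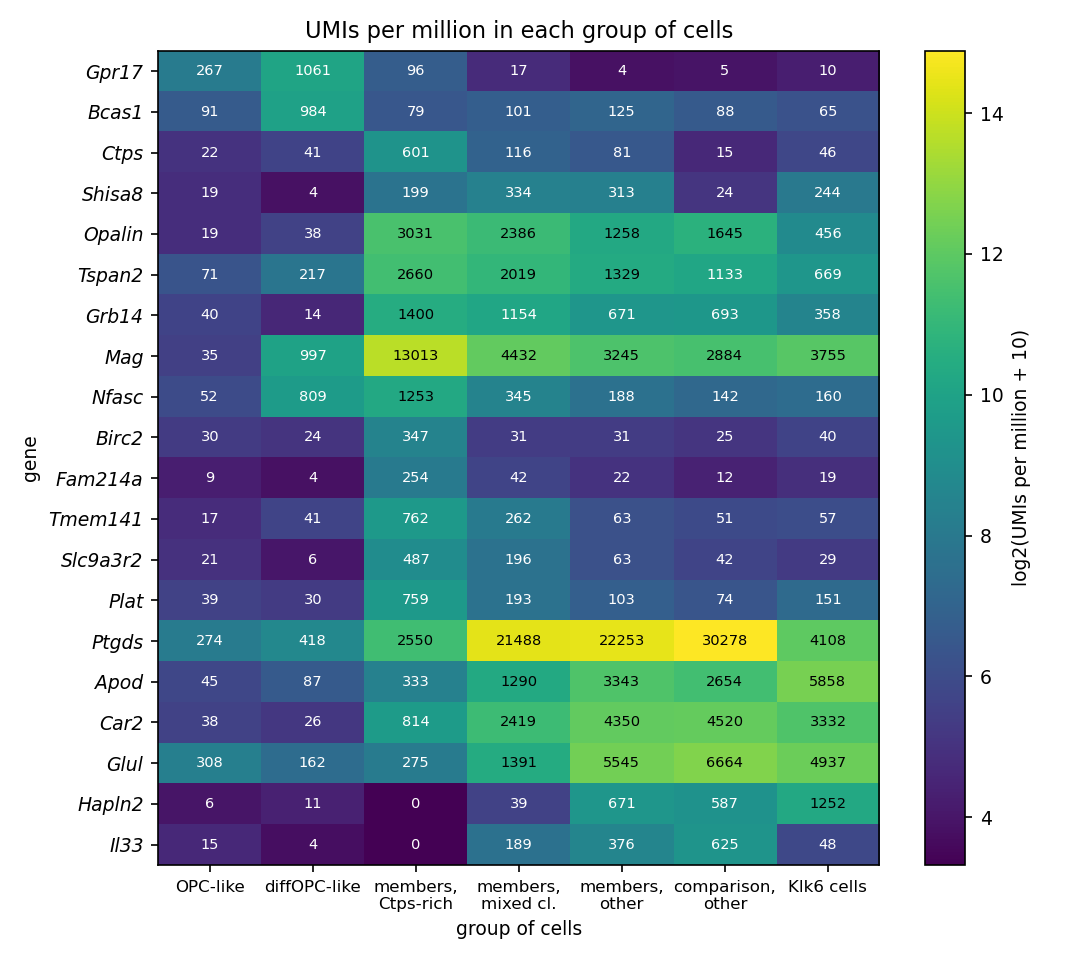
CPM of 20 genes (rows) in OPC-like and diffOPC-like cells, the 3 sets of Ctps/Shisa8 MOLs, the comparison MOLs outside the mixed cluster and Klk6 MOLs (columns); colour shows log2 of the value plus 10. Mag runs from 13013 in the Ctps-rich cells to 3245 in the Ctps/Shisa8 MOLs outside both clusters, and Hapln2 from 0 to 671.

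The share of Ctps/Shisa8 MOLs among Klk6-free MOLs was 18.1% (exact Clopper-Pearson interval 15.1 to 21.5) and ranged from 13.6% (8.71 to 19.8) in barcode number 3 to 22.4% (16.2 to 29.6) in barcode number 4, with 16.7% and 20.5% in numbers 1 and 2. These intervals overlap. On cells thinned to 3000 UMIs the rule gave 39 of 487 cells, or 8.01% (5.76 to 10.8), and on UMIs per 10000 it gave 118 of 596 cells, or 19.8%, of which 102 were among the 108. Free RNA of the 2 genes was read in microglia-like cells, which should lack Shisa8. Of 216 such cells thinned to 3000 UMIs, 0 had a UMI of Shisa8, which allows a share of up to 1.39%, and 2.31% had a UMI of Ctps. The shares of Ctps/Shisa8 MOLs with these genes follow from the rule and are not compared with these.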

How the data were processed

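The authors sequenced 10x Genomics 3′ libraries and, per the labels, processed them with Cell Ranger 2.0 against mm10. They deposited 1 matrix of raw UMI counts, 27998 genes by 5982 cells, with 29288898 UMIs and 1533 to 25054 UMIs per cell. The rule for calling cells is not given in the sources used here. Per-sample value columns that were not used numbered 0. GENCODE vM21 gave symbols to 27722 genes. Here, counts were summed by group and expressed per 1e+06 UMIs (CPM), and ratios carry exact conditional 95% intervals. Clusters were made with scanpy 1.11.5 (2000 variable genes, 30 components, 15 neighbours, Leiden resolution 1), and cells were named from 13 marker lists. Scrublet called 50 doublets (0.836%), which were kept. The named genes are the markers and rule genes, the 15 highest and 10 lowest called, and, from 18 lists, the called genes and up to 4 abundant others. Genes quoted by cluster or cell type outside these (Synpr, cluster leaders and markers of other cell types) were chosen after their values were seen. The members, lists and tests were chosen with earlier results of these data known. The comparison was tested on simulated data: of 50 genes set 3-fold higher, 100% were called, and of 50 set 2-fold higher 78%. Of 50 set 3-fold lower 86% were called, of 50 set 2-fold lower 76%, and of 6438 unchanged genes 0.621%. The simulated cells shared a profile apart from the genes set, with counting error only. They did not vary from cell to cell or with depth as real cells do, so 0.621% is no error rate for these data. Some genes that these rules name are not reported here.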

Additional observations from a re-analysis of the deposited data

How the results depend on the processing

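No paired analysis was possible because the results come from no test; the barcode numbers entered through the rule that a called gene lie on the same side in all 4. For the 272 higher and 241 lower genes, the counts were 81 and 57 at 2-fold, 126 and 125 with at least 200 UMIs, 475 and 570 with members by Ctps alone, 76 and 67 in cells of 7000 to 12000 UMIs, and 149 and 149 without the Ctps-rich cells. The higher genes numbered 151 in cells thinned to 3000 UMIs, 101 in cells of 5000 to 7000 UMIs and 127 with members outside both clusters, and the lower genes 366 with a pseudocount of 1 CPM and 159 by the mean of the CPM of each cell. With comparison cells weighted to the depth of the members, 368 were higher and 277 lower, of which 131 and 71 were shared with the main call. The settings by depth range or by cluster, and that without Dcn, Acta2 or Myl9, were chosen after seeing the data. Leaving out 1 barcode number gave 280 to 330 higher and 254 to 291 lower genes, 72 to 86 cells, shares of 16.6% to 19.8%, and 41.9% to 50% of members in the leading cluster (52.8% with all). The rule gave 39 cells (8.01%) when thinned, 233 (39.1%) at 1 UMI and 12.4% at 3 UMIs, and 22.4% with Mal, Ermn and Opalin at 40. The leading cluster held 35.2% of members at resolution 2 and 65.7% by K-means. Directions turned for Prom1 (-0.41 with depth weights), Grb14 (-0.10 at 5000 to 7000 UMIs and -0.13 outside both clusters), Chadl (-0.42) and Hapln2 (0.35), the last 2 outside both clusters. Over 22 alternatives, the 528 values of 27 named genes held these 5 reversals, 188 that moved beyond the counting interval of the main value and 335 that stayed within it. For 4 of these alternatives, which change only the threshold or the filter, a gene's value cannot move. The cause was not tested, and fewer cells enter most of these settings. Sparse genes such as Npb rest on few UMIs. The small number of deep comparison cells limits every contrast in deep cells and every value with depth weights.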

Other observations

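Some genes differed between barcode numbers in both groups of cells. Sgk1 stood at 944, 1013, 318 and 303 CPM in the Ctps/Shisa8 MOLs of barcode numbers 1 to 4 and at 1934, 1977, 845 and 807 CPM in the comparison MOLs. Hspa1a stood at 19.2, 36.0, 268 and 394 CPM and at 10.2, 5.45, 262 and 182 CPM, and Ddit4 at 372, 432, 152 and 236 CPM and at 302, 302, 96.6 and 122 CPM. In these 3 genes, chosen after their values were seen, numbers 1 and 2 lay on 1 side and numbers 3 and 4 on the other in both groups. No label ties a number to a condition, and none was assigned.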
